A study of Mus musculus with 17 samples.

Results

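The genes described here are 10 carriers of sugars and monocarboxylates, 10 of the 48795 genes in the count table. They were taken by name from the Slc5 (sodium-coupled) and Slc2 (facilitated) families. The rule uses no measured value, but the members were chosen with earlier results of these data known. They are Slc5a1, Slc5a2, Slc5a8, Slc5a10, Slc5a12, Slc2a1, Slc2a2, Slc2a4, Slc2a5 and Slc2a9. Bulk mRNA-seq gave 17 libraries of mouse kidney cortex in 4 groups: 5 wild type (WT), 5 GCERAd, 3 TRACK and 4 GCERAdT. Each library is labelled as a separate mouse, but n, which counts libraries throughout, may exceed the number of mice. GCERAd denotes mice with floxed Atf4 and a tamoxifen-inducible CreER driven by a piece of the Ggt1 promoter, which is active in proximal tubules, above all in the last segment. They received 200 µL of tamoxifen at 20 mg/mL daily on consecutive days from 6 weeks of age, and were fasted for 16 h about a month later, before the kidneys were taken. TRACK stands for transgenic model of cancer of the kidney, and GCERAdT for TRACK with the Atf4 knockout. As background, TRACK mice express a constitutively active HIF1A in the proximal tubule. Age, tamoxifen and fasting of the TRACK and GCERAdT mice, and whether WT mice received tamoxifen, are not given in the sources used here. The knockout and the transgene both act in proximal tubule cells only, whereas the cortex also holds distal tubules, collecting ducts, glomeruli and vessels.

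In the proximal tubule, filtered glucose is taken up from the lumen by sodium-coupled carriers, which use the sodium gradient that the Na,K-ATPase maintains, and leaves the cell on the blood side through facilitated carriers of the Slc2 family. The early segment relies on SGLT2 (Slc5a2) with GLUT2 (Slc2a2), and the late segment on SGLT1 (Slc5a1) with GLUT1 (Slc2a1). Lactate, pyruvate, ketone bodies and nicotinate are taken back from the filtrate by the sodium-coupled monocarboxylate carriers SMCT1 (Slc5a8) and SMCT2 (Slc5a12), of which the first has the higher affinity and lies further down the tubule. GLUT1 is a known target of hypoxia-inducible factors.

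Library totals lay between 53688512 and 71364561 counts, and no member had fewer than 998 counts in any library. Levels are given as CPM (counts scaled to a common library size, with TMM factors), with replicates in the order of their numbers. Atf4 itself, the targeted gene, was measured at 80.1, 74.7, 82.2, 87.1 and 101 CPM in WT, 73.0, 55.9, 56.9, 63.1 and 76.1 CPM in GCERAd, 93.4, 79.7 and 77.1 CPM in TRACK, and 79.6, 93.4, 92.8 and 104 CPM in GCERAdT. It was lower in GCERAd than in WT (log2 fold change -0.37, SE 0.11, adjusted p = 0.0329), with a small overlap, and was not called between GCERAdT and TRACK (log2 fold change 0.15, SE 0.11, adjusted p = 0.494). Atf4 was higher in GCERAdT than in GCERAd, without overlap (log2 fold change 0.48, SE 0.12, adjusted p = 0.0205), and the knockout contrasts differed by 0.54 (adjusted p = 0.0388, edgeR), so 2 groups with the same knockout label differed in the targeted gene. The deletion label of the GCERAdT libraries was not visible at whole-gene Atf4 counts, and the group names stand for labels throughout. All 5 WT libraries held Xist at 148 to 423 CPM and summed Y-linked transcripts of at most 0.307 CPM. The other 3 groups held Y-linked transcripts at 129 to 167 CPM, with Xist at 6.06 CPM in GCERAd 1 and at most 0.690 CPM in their other libraries. In both comparisons with WT, the group label and the sex-linked difference therefore cannot be told apart, and all 7 genes of a list of transcripts higher in male kidney were called higher. GCERAd libraries 1 to 3 stood apart from 4 and 5, with an SD of log2 ratios between library pairs of 0.407 to 0.464 across that split and 0.196 to 0.282 inside it. The share of counts on processed pseudogenes also formed a low (0.0320 to 0.0380%) and a high (0.0574 to 0.0784%) class, and all TRACK libraries were in the high one.

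Sequence upstream of the start was examined for the members of the RefSeq promoter table (GRCm38.p6), which listed 7 of the 10 with 8 starts. Slc5a2, Slc5a12 and Slc2a4 were not among them. Shown are those of the members in the table that were called between TRACK and WT (Slc5a1, Slc5a8, Slc5a10 and Slc2a5) and of Slc2a1, which was called in both comparisons with GCERAd. Slc5a10 has 2 starts, of which the first is shown. Each runs 5′ to 3′ up to the RefSeq start, or up to 20 bases inside the gene as GENCODE draws it. Capitals mark every match to the motifs searched on both strands: ACGTG and GCGTG (the core of the hypoxia response element), CACGTG (the E-box, which contains ACGTG) and TGATGNAA (the composite element read by ATF4 with C/EBP partners). The palindromic HNF1 motif was searched as well.
Slc5a1 (chr5:33103969-33104218, + strand): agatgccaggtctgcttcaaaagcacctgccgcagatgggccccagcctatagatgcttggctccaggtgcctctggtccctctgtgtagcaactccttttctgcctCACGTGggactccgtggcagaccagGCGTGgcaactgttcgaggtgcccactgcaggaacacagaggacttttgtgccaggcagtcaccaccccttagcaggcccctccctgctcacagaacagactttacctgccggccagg
Slc5a8 (chr10:88885742-88885991, + strand): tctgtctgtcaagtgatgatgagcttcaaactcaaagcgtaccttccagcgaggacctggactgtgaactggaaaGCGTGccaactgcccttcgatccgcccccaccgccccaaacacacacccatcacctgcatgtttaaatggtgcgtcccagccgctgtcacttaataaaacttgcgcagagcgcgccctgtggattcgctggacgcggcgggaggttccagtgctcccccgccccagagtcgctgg
Slc5a10 (chr11:61720807-61721049, - strand): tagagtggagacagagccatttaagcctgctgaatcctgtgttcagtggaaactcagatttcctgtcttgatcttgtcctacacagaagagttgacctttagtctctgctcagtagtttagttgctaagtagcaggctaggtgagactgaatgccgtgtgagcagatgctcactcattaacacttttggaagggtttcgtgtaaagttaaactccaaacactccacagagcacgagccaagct
Slc2a1 (chr4:119108495-119108730, + strand): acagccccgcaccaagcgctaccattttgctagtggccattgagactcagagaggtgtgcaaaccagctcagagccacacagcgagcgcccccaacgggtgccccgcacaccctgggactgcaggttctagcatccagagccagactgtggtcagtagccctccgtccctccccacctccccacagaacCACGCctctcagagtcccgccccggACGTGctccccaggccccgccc
Slc2a5 (chr4:150119094-150119302, + strand): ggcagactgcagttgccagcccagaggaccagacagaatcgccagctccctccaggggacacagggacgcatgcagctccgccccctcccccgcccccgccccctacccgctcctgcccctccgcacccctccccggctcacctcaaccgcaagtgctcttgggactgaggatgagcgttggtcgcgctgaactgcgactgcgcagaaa
The upstream sequence of Slc2a1 held an ACGTG 36 bases before the RefSeq start and a GCGTG on the other strand. That of Slc5a1 held the E-box and a GCGTG, that of Slc5a8 a GCGTG, and those of Slc5a10 and Slc2a5 none of the motifs. Among all 32817 promoters of the table, searched over the same window, 19.6% held ACGTG, 32.4% GCGTG, 7.15% CACGTG, 3.97% TGATGNAA and 0.00914% the HNF1 motif. TGATGNAA and the HNF1 motif were found in no member window. The matches are descriptions of letters.

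Of the sodium-coupled sugar carriers, Slc5a1 encodes SGLT1, the high-affinity glucose and galactose carrier of the late proximal tubule. It was measured at 85.3, 82.4, 109, 83.6 and 88.3 CPM in WT and 77.1, 84.7, 85.0, 97.2 and 85.9 CPM in GCERAd. In TRACK it was at 110.5, 116 and 139.9 CPM, and in GCERAdT at 76.2, 83.6, 74.9 and 86.2 CPM. The 3 TRACK libraries lay above all others, and the remaining groups overlapped one another. Slc5a1 rose in TRACK against WT (log2 fold change 0.45, SE 0.11, adjusted p = 0.00877) and fell in GCERAdT against TRACK (log2 fold change -0.60, SE 0.10, adjusted p = 0.00746). With the pseudogene class as covariate the rise stood at 0.57 and was not called. That fit rests on the single WT library of the high class. Here and below, fewer cells of a type and less RNA per cell cannot be told apart, since whole cortex was measured.

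Slc5a2, the gene of SGLT2 that takes up most filtered glucose in the early tubule, was at 332, 331, 283, 327 and 369 CPM in WT and 299, 364, 363, 391 and 322 CPM in GCERAd. It was at 340.0, 293 and 213 CPM in TRACK and 236, 249.7, 243 and 401 CPM in GCERAdT. All groups overlapped, and GCERAdT 4 lay far above the other 3 libraries of its group. No comparison of Slc5a2 was called in the main fits. With the replicate number as a block it was called lower in GCERAdT than in GCERAd (-0.38, adjusted p = 0.0242, edgeR). The same held without GCERAdT 4 (-0.53, adjusted p = 0.0141, edgeR) and among low-pseudogene libraries (-0.46, adjusted p = 0.0169, edgeR). The difference was 0.10 (95% interval -0.11 to 0.30) on the log2 scale for GCERAd against WT and -0.22 (95% interval -0.51 to 0.07) for TRACK against WT. Slc5a2 shares 597 exonic bases with BC017158 on the opposite strand, which was at 21.5 to 25.2 CPM on average in the 4 groups. The kit was stranded, but the strand setting of the counting is not given in the sources used here.

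Slc5a10 encodes SGLT5, a mannose and fructose carrier of the kidney. It was at 325, 321, 425, 262 and 322 CPM in WT and at 176, 222, 194, 599 and 519 CPM in GCERAd. The first 3 GCERAd libraries were below every WT library and the last 2 above every WT library, so that the group mean, 342 ± 201 CPM (SD, n = 5), describes none of its libraries. In TRACK it was at 1098, 1001 and 878 CPM, and in GCERAdT at 632, 655, 613 and 679 CPM. TRACK lay above every other library, and GCERAdT above every GCERAd and WT library. Slc5a10 rose 3.00-fold in TRACK against WT (log2 fold change 1.58, SE 0.13, adjusted p = 3.51e-06), the largest fold among the members in any pairwise comparison, and fell in GCERAdT against TRACK (log2 fold change -0.62, SE 0.10, adjusted p = 0.0045). That second call was lost when all 17 samples shared 1 estimate of the spread (adjusted p = 0.329, edgeR). Fam83g, on the opposite strand with 393 shared exonic bases, averaged 3.34 CPM in TRACK and 17.3 CPM in WT, so it was far less abundant and lower where Slc5a10 was higher.

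The monocarboxylate carriers differed in direction. Slc5a8 (SMCT1) was at 179.8, 165, 172, 168 and 186 CPM in WT and 322, 307, 288, 315 and 319.8 CPM in GCERAd. It was at 442, 444 and 358 CPM in TRACK and 301, 307, 289 and 316 CPM in GCERAdT. Every library of the other 3 groups was above every WT library, and TRACK above GCERAdT. Slc5a8 rose 1.80-fold in GCERAd against WT (log2 fold change 0.85, SE 0.07, adjusted p = 3.11e-06) and 2.38-fold in TRACK against WT (log2 fold change 1.25, SE 0.09, adjusted p = 9.6e-07), the comparisons that carry the sex-linked difference. It fell in GCERAdT against TRACK (log2 fold change -0.45, SE 0.10, adjusted p = 0.0262), where leaving out any 1 of TRACK 1, TRACK 2 or GCERAdT 1 to 3 took the adjusted p above 0.05, to at most 0.137 (edgeR). The fall was also not called with the pseudogene class as covariate (adjusted p = 0.0789, edgeR). Of 6 late proximal tubule markers, 4 were called higher in each of the comparisons with WT, while Napsa was called lower in GCERAd against WT (-0.44); 3 of the 6 are also on the list of transcripts higher in male kidney. The part of either in the Slc5a8 values was not tested.

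Slc5a12 (SMCT2), the low-affinity carrier of the early tubule, was at 367, 330.5, 329.7, 467 and 398 CPM in WT and 383, 337, 329, 266 and 285 CPM in GCERAd. It was at 147, 168 and 176 CPM in TRACK and 322, 289.9, 286 and 175 CPM in GCERAdT. All TRACK libraries were below every WT and GCERAd library, and GCERAdT 4 reached the TRACK range. Slc5a12 fell to 0.43-fold of WT in TRACK (log2 fold change -1.21, SE 0.12, adjusted p = 1.98e-05) and rose in GCERAdT against TRACK (log2 fold change 0.71, SE 0.18, adjusted p = 0.0443). The rise was no longer called without any 1 of 6 of the 7 libraries, GCERAdT 4 being the exception (adjusted p up to 0.161, edgeR). It was also not called with the pseudogene class as covariate (adjusted p = 0.208, edgeR). A list of 6 early proximal tubule markers, none of them a carrier described here, was at 4296 to 5398 CPM summed in WT, 1445 to 1736 in TRACK and 2161 to 2599.6 in GCERAdT. All 6 were called lower in TRACK against WT. The part of this segment signal in the Slc5a12 values was not tested.

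Among the facilitated carriers, Slc2a1 (GLUT1) is the widely expressed glucose carrier. It was at 61.8, 56.2, 71.2, 52.7 and 68.4 CPM in WT and 41.8, 40.2, 32.6, 34.2 and 35.0 CPM in GCERAd. It was at 73.0, 76.6 and 61.4 CPM in TRACK and 88.1, 92.2, 85.9 and 106 CPM in GCERAdT. GCERAd lay below every other library and GCERAdT above every other library, whereas TRACK and WT overlapped. Slc2a1 fell to 0.60-fold of WT in GCERAd (log2 fold change -0.74, SE 0.10, adjusted p = 0.000264) and was 2.49-fold higher in GCERAdT than in GCERAd (log2 fold change 1.32, SE 0.10, adjusted p = 5.06e-06). It was not called in TRACK against WT, where the difference was 0.18 (95% interval -0.06 to 0.42). Of 9 listed targets of hypoxia-inducible factors, 7 were called higher there and 1 (Ndrg1) lower, beside 14.7% and 14.5% of all genes. Of the same 9, 8 were called higher in GCERAdT against GCERAd, beside 4.70% of all genes. In GCERAd against WT 4 were called higher and none lower, beside 7.79% of all genes called higher. The median log2 fold change of the list was 0.05 there, and its summed level had a median of 2548 CPM in GCERAd and 3858 CPM in WT, with overlap. The part of these factors in the Slc2a1 values was not tested. The list holds genes other than the members and was written with earlier results of these data known.

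Slc2a2 (GLUT2), the basolateral exit carrier of the early tubule, was at 244, 256, 205, 285 and 264 CPM in WT and 218, 250.2, 258, 299.7 and 293 CPM in GCERAd. It was at 249.7, 240.4 and 336 CPM in TRACK and 200.1, 208, 223 and 276 CPM in GCERAdT. All 4 groups overlapped and no comparison was called. The widest interval of its 4 pairwise differences was -0.28 (95% interval -0.59 to 0.03) on the log2 scale, for GCERAdT against TRACK.

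Slc2a4 (GLUT4), the insulin-responsive carrier of muscle and fat, was at 29.3, 28.5, 34.1, 33.1 and 37.2 CPM in WT and 29.5, 25.1, 25.4, 19.8 and 18.5 CPM in GCERAd. It was at 21.1, 28.7 and 21.9 CPM in TRACK and 18.1, 18.0, 16.3 and 18.3 CPM in GCERAdT. GCERAdT was below every library of the other groups, and WT overlapped with both GCERAd and TRACK. It fell in GCERAd against WT (log2 fold change -0.44, SE 0.13, adjusted p = 0.0309) and in TRACK against WT (log2 fold change -0.44, SE 0.12, adjusted p = 0.0165). The first call was lost without any 1 of WT 3, WT 4, WT 5, GCERAd 4 or GCERAd 5, and the second without TRACK 1 or TRACK 3. With the pseudogene class as covariate the first was also lost (-0.33, adjusted p = 0.0630, edgeR). The second stood at -0.25 in such a fit, which rests on the single WT library of the high class, and was not called. A list of 5 skeletal muscle markers summed to 3.46 to 10.5 CPM in WT and to at most 0.478 CPM in any other library, with 2 of the 5 at 0 counts throughout WT. A list of 6 fat cell markers summed to 4.26 to 9.56 CPM in WT and to 44.6, 111 and 118 CPM in GCERAd libraries 1 to 3, which also held the most Slc2a4 of that group. GCERAd 4 and 5, at 19.7 and 21.1 CPM, exceeded every WT library in fat markers and held the least Slc2a4 of their group. TRACK 1, at 60.2 CPM, held the least Slc2a4 of TRACK. The part of muscle or fat in the Slc2a4 values was not tested.

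Slc2a5 (GLUT5), the fructose carrier, was at 132, 129.6, 119.7, 132 and 180.3 CPM in WT and 98.4, 109, 111, 175 and 167 CPM in GCERAd. It was at 329, 313 and 269 CPM in TRACK and 142, 148, 137 and 248 CPM in GCERAdT. TRACK lay above every other library, and the other 3 groups overlapped. Slc2a5 rose 2.19-fold in TRACK against WT (log2 fold change 1.13, SE 0.12, adjusted p = 3.6e-05) and fell in GCERAdT against TRACK (log2 fold change -0.85, SE 0.18, adjusted p = 0.0244). GCERAdT 4 was the nearest of its group to TRACK, and without it the difference was -1.09 on the log2 scale. The call was lost without any 1 of TRACK 1, TRACK 2, GCERAdT 1, GCERAdT 2 or GCERAdT 3 (adjusted p up to 0.0909, edgeR) and with the pseudogene class as covariate (adjusted p = 0.128, edgeR). The GCERAd values split as those of Slc5a10 did, with libraries 4 and 5 above 1 to 3.

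Slc2a9 (GLUT9), a urate carrier despite its family, had the lowest mean per kilobase of the members in each group. It was at 24.8, 23.2, 22.5, 25.6 and 22.4 CPM in WT and 17.6, 22.2, 22.1, 31.7 and 28.5 CPM in GCERAd. It was at 32.1, 28.4 and 24.0 CPM in TRACK and 22.3, 21.1, 25.9 and 25.7 CPM in GCERAdT. All groups overlapped and no comparison was called. The difference between TRACK and WT was 0.25 (95% interval 0.03 to 0.46) on the log2 scale, with an adjusted p of 0.08 (edgeR), and it was called higher there only without TRACK 3 among the omissions of 1 library.

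**Figure D1:**
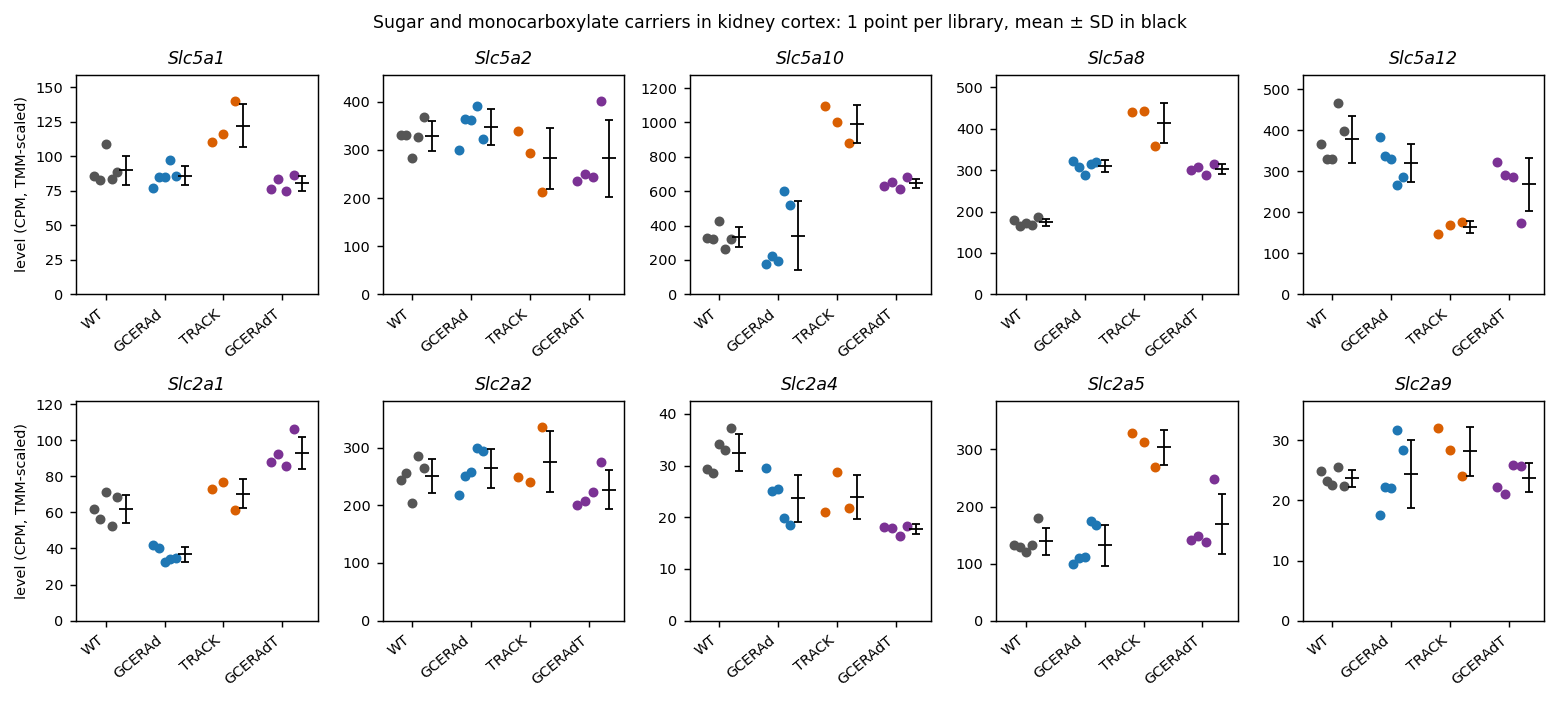
Levels of the 10 carriers in CPM (TMM-scaled, linear axes from 0), 1 point per library with the group mean ± SD beside it. TRACK stands above the other groups for Slc5a1, Slc5a10, Slc5a8 and Slc2a5, Slc2a1 is lowest in GCERAd and highest in GCERAdT, and the GCERAd points for Slc5a10 fall into 3 low and 2 high libraries.

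The first comparison asked what the knockout label goes with when the transgene is absent. In GCERAd against WT, 1 of the 10 members was called higher (Slc5a8) and 2 lower (Slc2a1 and Slc2a4), in edgeR's quasi-likelihood test with an adjusted p threshold of 0.05, beside 15.2% of 21310 genes called (7.79% higher and 7.38% lower). For 2 members, Slc5a8 and Slc2a1, the library values of GCERAd and WT were fully separate, as they were for 12.9% of all genes. Within the low pseudogene class (4 WT and 2 GCERAd libraries) Slc5a8 differed by 0.85 and Slc2a1 by -0.61 on the log2 scale, both called, as was Slc5a10 at -0.73, beside 15.7% of 20094 genes called. The high class holds 1 WT library and 3 of GCERAd, so calls inside it are not read; Slc5a8 stood at 0.92 and Slc2a1 at -0.71 there. With GCERAd 1 to 3 left out, 6 members were called, 3 in each direction, beside 20.7% of 20328 genes, and Slc5a10 was then higher by 0.77. With GCERAd 4 and 5 left out it stood at -0.73 and was called lower, so its direction rested on which of these libraries were used.

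The second comparison placed the same label in the TRACK background. In the libraries labelled GCERAdT against TRACK, 1 member was called higher (Slc5a12) and 4 lower (Slc5a1, Slc5a8, Slc5a10 and Slc2a5), beside 4.05% of 20991 genes called (1.55% higher and 2.50% lower). The groups did not overlap for 6 members, those 4 together with Slc2a1 and Slc2a4, against 17.4% of all genes. Slc2a1 was at 0.41 (95% interval 0.17 to 0.64) with an adjusted p of 0.0605 (edgeR), and Slc2a4 at -0.43 (95% interval -0.69 to -0.17) with an adjusted p of 0.0691 (edgeR). DESeq2 called both. Leaving out 1 library at a time left between 2 and 5 members called, and Slc5a1 and Slc5a10 were called each time. The lowest count, 2, arose without TRACK 1, TRACK 2, GCERAdT 1, GCERAdT 2 or GCERAdT 3. Within the high pseudogene class (3 TRACK and 2 GCERAdT libraries) no member was called, beside 1.19% of 19905 genes, and Slc5a1 differed by -0.60 and Slc5a10 by -0.62 there. The low class held no TRACK library. Both groups held Y-linked transcripts at 134 to 167 CPM summed and Xist at no more than 0.690 CPM, and none of these genes was called between them.

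The next comparison was of the transgene label alone. In TRACK against WT, 4 members were called higher (Slc5a1, Slc5a8, Slc5a10 and Slc2a5) and 2 lower (Slc5a12 and Slc2a4), beside 29.2% of 20969 genes called (14.7% higher and 14.5% lower). The groups did not overlap for 5 members, all but Slc2a4 of those called, against 32.0% of all genes. The high pseudogene class holds a single WT library beside the 3 of TRACK, so the comparison inside it has no replication of WT and its calls are not read. The differences there were 1.33, 1.63, -1.01 and 1.23 for Slc5a8, Slc5a10, Slc5a12 and Slc2a5, and 0.57 for Slc5a1.

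The last pairwise comparison was of the transgene label among knockout libraries. In GCERAdT against GCERAd only Slc2a1 was called, beside 10.1% of 21488 genes (4.70% higher and 5.38% lower), while the groups did not overlap for 3 members (Slc2a1, Slc5a10 and Slc2a4) against 13.0% of all genes. Libraries with the same replicate number deviated together in these 2 groups. The number also follows the pseudogene class there, so a pairing was not established. With the number as a block 6 members were called, beside 19.1% of 21488 genes. With the block Slc2a1 was higher by 1.30, Slc5a10 by 1.30 and Slc2a5 by 0.42. The 3 called lower were Slc2a4 at -0.51, Slc5a2 at -0.38 and Slc5a12 at -0.34. GCERAd 5 has no partner of its number and adds nothing to that difference. Slc2a1 was called under every alternative run for this comparison. Without GCERAd 4 and 5 the count was 4, beside 16.3% of 21117 genes, with Slc5a10 higher by 1.69. Leaving out 1 library gave 3 calls without GCERAd 4 and 2 without GCERAd 5 or GCERAdT 4. Slc5a8, which lay above every WT library in both groups, differed by -0.06 (95% interval -0.23 to 0.12) between them.

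**Figure D2:**
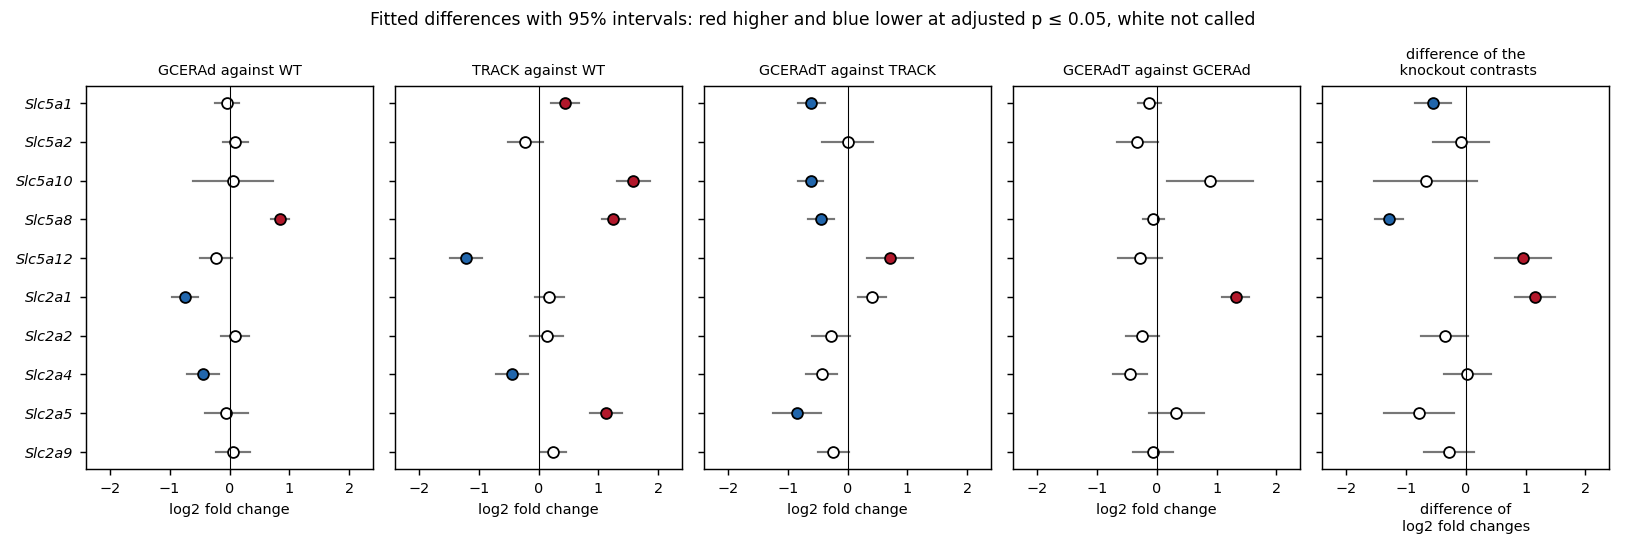
Fitted log2 fold changes of the 10 carriers with 95% intervals in the 4 pairwise comparisons, and the difference of the 2 knockout contrasts in the last panel. Red and blue points were called higher and lower at an adjusted p of at most 0.05. Slc5a8 lies above 0 and Slc2a1 below it in GCERAd against WT, and the other way round in GCERAdT against TRACK, where Slc2a1 was not called.

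The knockout contrast was then compared between backgrounds, as the change from TRACK to GCERAdT less the change from WT to GCERAd. These 2 contrasts share no library. Of the 10 members, 2 differed upwards (Slc2a1 and Slc5a12) and 2 downwards (Slc5a8 and Slc5a1), beside 12.7% of 23056 genes called (6.26% higher and 6.43% lower). Slc2a1 was lower with the knockout label in the absence of the transgene and at 0.41 in its presence, a difference of 1.16 (95% interval 0.83 to 1.49) with an adjusted p of 6.59e-05 (edgeR). Slc5a8 rose in the first and fell in the second, a difference of -1.29 (95% interval -1.52 to -1.05) with an adjusted p of 3.44e-07 (edgeR). For Slc5a12 the contrasts were -0.23 and 0.71, a difference of 0.95 (95% interval 0.48 to 1.42) (adjusted p = 0.00787, edgeR). For Slc5a1 they were -0.04 and -0.60, a difference of -0.55 (95% interval -0.85 to -0.25) (adjusted p = 0.0157, edgeR). Slc2a4 differed little, at 0.02 (95% interval -0.37 to 0.42). Since WT alone held a high level of Xist and almost no Y-linked transcripts, these differences carry the sex-linked difference as well. They were called each time 1 library was left out; with GCERAd 1 to 3 left out 7 members were called, beside 20.6% of 22540 genes.

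Ratios of paired carriers inside a library do not depend on library scaling, and were formed from counts per kilobase of exon. The log2 ratio of early Slc5a12 over late Slc5a8 was 1.42, 1.40, 1.33, 1.87 and 1.49 in WT and 0.64, 0.52, 0.59, 0.15 and 0.23 in GCERAd. It was -1.19, -1.01 and -0.63 in TRACK and 0.49, 0.31, 0.38 and -0.46 in GCERAdT. Slc5a12 was the more abundant per length in every WT library and Slc5a8 in every TRACK library. The mean ratio was lower in GCERAd than in WT by 1.07 (p = 0.00794, the smallest the design allows; adjusted over 12 tests 0.0635, two-sided exact permutation test), with no overlap. TRACK fell below WT by 2.45 (p = 0.0357, the smallest possible; adjusted 0.107, exact permutation test), again with no overlap. GCERAdT was above TRACK by 1.12 without overlap, at the smallest p that 4 against 3 libraries allow (p = 0.0571, exact permutation test), so that no result of this size of design could pass.

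The log2 ratio of Slc2a2 over Slc2a1 was 1.27, 1.48, 0.81, 1.72 and 1.23 in WT and 1.67, 1.92, 2.27, 2.42 and 2.35 in GCERAd. It was 1.06, 0.93 and 1.74 in TRACK and 0.47, 0.46, 0.66 and 0.66 in GCERAdT. GCERAdT held the lowest ratios of the 4 groups, and its mean was below that of GCERAd by 1.56 (p = 0.0159, the smallest possible; adjusted 0.0635, exact permutation test). GCERAd against WT differed by 0.83, with overlap (p = 0.0159, adjusted 0.0635, exact permutation test). GCERAdT against TRACK differed by -0.68 without overlap, at the smallest p of that design (p = 0.0571, adjusted 0.114, exact permutation test). The ratio of Slc5a2 over Slc5a1 was 2.38 ± 0.28 in WT (SD, n = 5), 2.52 ± 0.09 in GCERAd (SD, n = 5), 1.69 ± 0.52 in TRACK (SD, n = 3) and 2.28 ± 0.30 in GCERAdT (SD, n = 4), with overlap in all 4 comparisons. None of the 12 ratio tests passed an adjusted p of 0.05 by the exact permutation test.

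**Figure D3:**
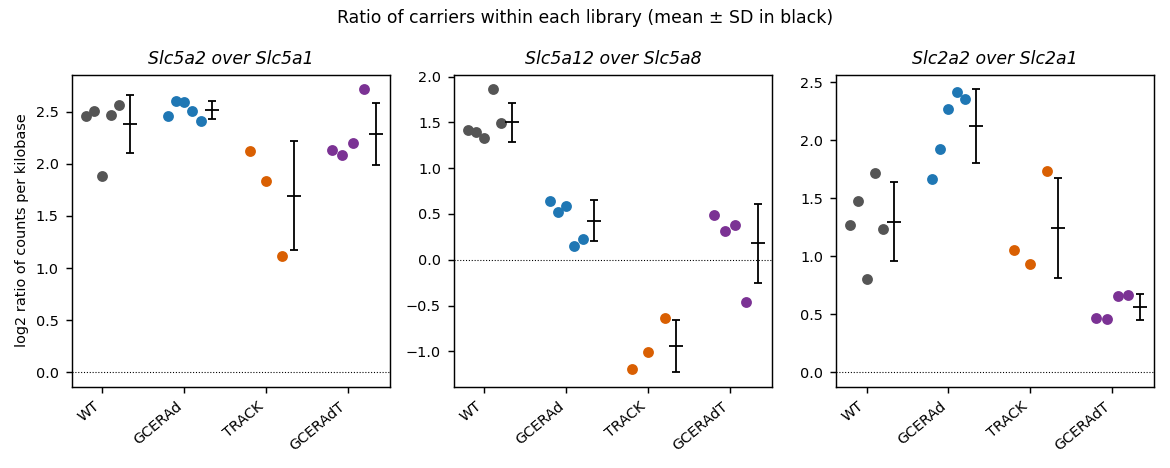
Log2 ratio of counts per kilobase for 3 pairs of carriers, 1 point per library with the group mean ± SD. The ratio of Slc5a12 over Slc5a8 lies above 0 in every WT and GCERAd library and below 0 in every TRACK library, and the ratio of Slc2a2 over Slc2a1 is highest on average in GCERAd and lowest in GCERAdT.

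Per kilobase of merged exon, levels can be ordered between genes. In WT the order was Slc5a10 (140.1 ± 24.9 CPM per kb, SD, n = 5), Slc5a2 (113 ± 10.5), Slc5a12 (93.2 ± 14.0), Slc2a2, Slc2a5, Slc5a8, Slc5a1, Slc2a1, Slc2a4 and Slc2a9 (4.67 ± 0.28). The library values of Slc5a10 and Slc5a2, of Slc5a2 and Slc5a12, of Slc2a2 and Slc2a5, and of Slc5a1 and Slc2a1 overlapped between libraries. Inside each WT library, however, Slc5a1 lay above Slc2a1. The order was reversed only in WT 4 for Slc5a10 and Slc5a2 and for Slc5a2 and Slc5a12, and only in WT 5 for Slc2a2 and Slc2a5. These neighbours were not tested against each other. In TRACK, Slc5a10 led at 419.6 ± 46.5 CPM per kb (SD, n = 3), apart from all others, and Slc5a12 was sixth. In GCERAdT, Slc2a1 (26.5 ± 2.58 CPM per kb, SD, n = 4) stood above Slc5a1 (19.5 ± 1.35), without overlap, whereas in the other 3 groups Slc5a1 had the higher mean.

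Other genes of the same pathways were read from lists written with earlier results known, and are given as counts of genes called, with log2 fold changes for those named. The proton-coupled Slc16 carriers with their chaperones Bsg and Emb had 16 genes tested. In GCERAd against WT 3 were higher and 5 lower (median -0.26, against 0.000598 for all genes), among them Slc16a9, a carnitine and creatine carrier (0.90). In TRACK against WT 4 were higher and 3 lower (median -0.07, against -0.02 for all genes). Slc16a3, the lactate exporter MCT4 and a known hypoxia target, was at 0.223 to 0.769 CPM in WT and 14.7 to 20.5 CPM in TRACK (log2 fold change 5.13, SE 0.25, adjusted p = 6.84e-08). It was also higher in GCERAdT than in TRACK (1.13), and its chaperone basigin (Bsg) rose by 0.74 in TRACK against WT. 

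The enzymes that use the carried sugars and monocarboxylates had 11 genes tested. In TRACK against WT 6 were higher and 3 lower (median 0.63), beside 29.2% of 20969 genes called. Hexokinase 2 (Hk2) rose by 5.66, lactate dehydrogenase A (Ldha) by 1.49, and triokinase (Tkfc), which acts in fructose breakdown, by 1.23. A link between these enzymes and the carriers was not tested. Hk2 was near the floor in WT, at 0.272 to 0.521 CPM, and uneven in TRACK, at 24.8, 19.9 and 6.77 CPM. In GCERAd against WT 2 of the 11 were higher, the acetate-activating enzyme Acss2 (1.10) and Ldha (0.54), and 2 were lower, Hk1 (-0.83) and Acss1 (-0.49).

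**Figure D4:**
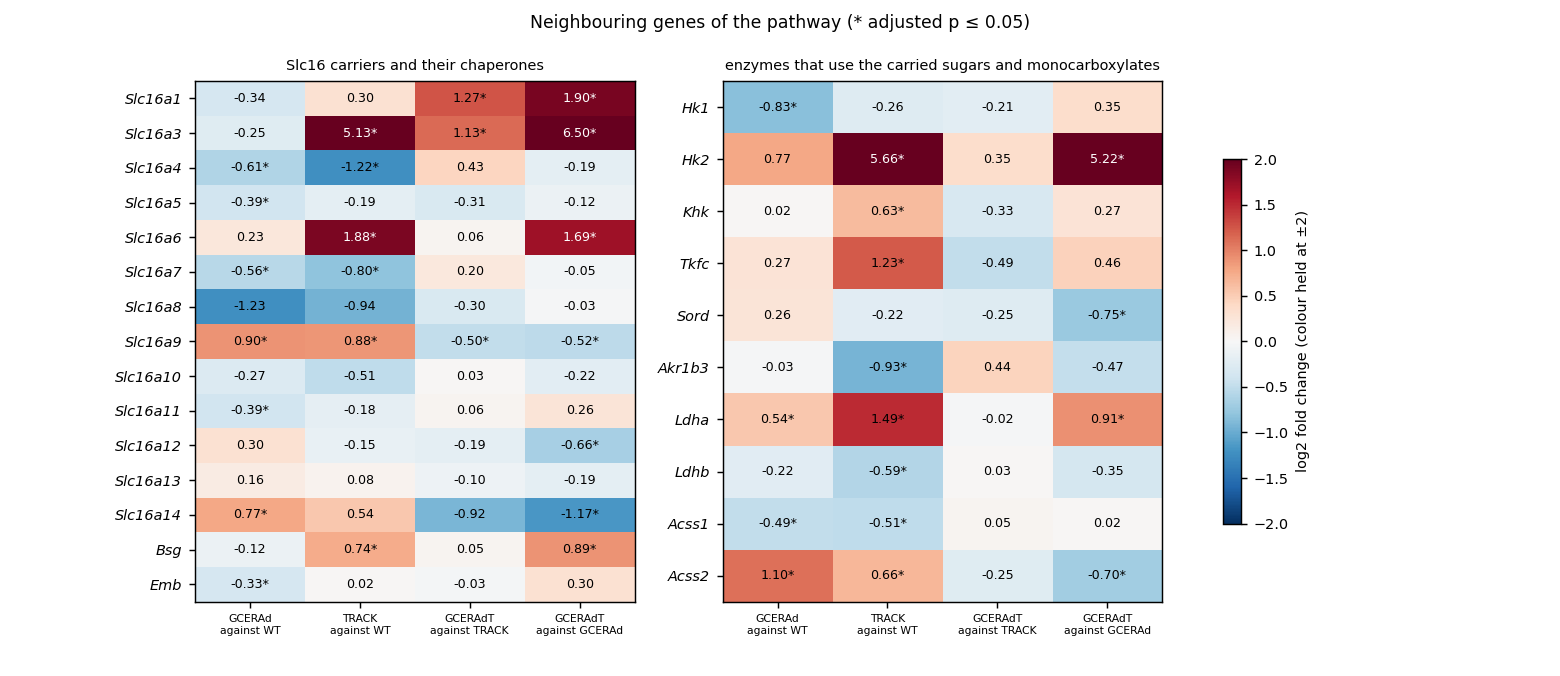
Log2 fold changes of the Slc16 carriers with their chaperones (left) and of the enzymes that use the carried substrates (right) in the 4 pairwise comparisons, with the colour scale held at ±2 and an asterisk for an adjusted p of at most 0.05, for the genes reported singly. Slc16a3 and Hk2 are the strongest of the called changes in TRACK against WT.

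Of 7 other Slc2 carriers, 2 were lower in GCERAd against WT, the proton-coupled inositol carrier Slc2a13 (-1.03) and Slc2a8 (-0.35). In TRACK against WT 1 was higher, the glucose carrier Slc2a3 (1.30), and 3 were lower, with Slc2a12 at -1.05. Slc2a3 was low in both groups, at a mean of 0.702 CPM in WT and 1.74 CPM in TRACK. Of 6 other Slc5 carriers tested, 4 were lower in TRACK against WT and none higher, among them the inositol carrier Slc5a11 (-1.20) and the biotin and pantothenate carrier Slc5a6 (-0.56). Slc5a6 and the inositol carrier Slc5a3 were also lower in GCERAd against WT (-0.52 and -0.67). Among 9 partners and regulators, 2 were higher and none lower in GCERAd against WT, and 2 were higher and 2 lower in TRACK against WT. Txnip, which is induced by glucose and promotes removal of GLUT1 from the membrane, rose by 1.44 in TRACK against WT, and Pdzk1ip1 (MAP17), the accessory protein of SGLT2, was lower there (-0.78). Of 8 genes of urate handling, the setting of Slc2a9, 5 were higher in GCERAd against WT and none lower, with Slc17a3 at 1.77 and Slc22a6 at 1.40, and in TRACK against WT 3 were higher and 1, Slc22a8 (-1.90), lower.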

How the data were processed

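Total RNA of mouse kidney cortex was sequenced as 17 stranded mRNA libraries, by the study's methods with 51 bp paired reads. The study's lane summary, however, lists a higher yield of bases per cluster for some libraries than for others. Read length may therefore not have been uniform. The names in that summary are not the library labels used here, so its relation to the pseudogene classes was not tested. The authors trimmed reads with Cutadapt 3.5, mapped them to GRCm38 with STAR 2.7.9a and deposited whole-number counts per gene from HTSeq-count 0.13.5, not normalised. From these counts, genes with at least 10 counts over the samples fitted were tested with edgeR 4.0.16 (R 4.3.3, TMM scaling, quasi-likelihood test, Benjamini-Hochberg over all genes, called at 0.05), each pair of groups on its own and the difference of the knockout contrasts over all samples. Exon lengths came from GENCODE M21. Log2 ratios were compared by exact permutation (scipy 1.17.1). Scripts were tested on simulated counts. The alternatives were DESeq2 1.42.0, RLE scaling, an FPKM minimum of 1, no filter, a replicate block, the pseudogene class as covariate, a fit of all 17 samples, and leaving out libraries.

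The 10 members and all gene lists were chosen with earlier results of these data known. Named besides the members are at most 4 called genes per list with the smallest adjusted p in GCERAd against WT and likewise in TRACK against WT, and the 2 genes nearest in pattern to each member. Of the listed genes, 2 are counted with their lists but not reported here singly. Each library is labelled as a separate mouse, while the protocol speaks of 3 to 4 mice per cohort and 2 groups hold 5 libraries. Every replicate pair differed by more than counting error (SD of log2 ratios 0.194 to 0.464, against 0.0438 to 0.0491 from counting), so no library was taken as deposited again. That comparison cannot tell separate mice from separate preparations of 1 mouse, and the study's list of sequenced libraries holds 2 names that recur with a suffix. Each library was counted once, but n may exceed the number of mice, and p-values would then be too small. Replicate numbers were checked for pairing by the correlation of deviations from group means, for libraries of the same number only. It was 0.387 to 0.489 for all 4 pairs of GCERAdT and GCERAd, and -0.536 to 0.0400 for the pairs of the other comparisons. The labels state no pairing. In both GCERAdT and GCERAd, libraries 1 and 2 were in the low pseudogene class and 3 and 4 in the high one. The correlations cannot tell a pairing from that shared class, so the block is an alternative only.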

Additional observations from a re-analysis of the deposited data

Results flagged for a closer look

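In 5 of 30 sets of values of 1 carrier in 1 group, 1 library stood apart from the others by Dixon's criterion. Chance alone would give that in about 1 of 20 independent sets. These sets share their libraries, so no conclusion is drawn from the number. TRACK, with 3 libraries, was not examined. Slc5a1 was 109 CPM in WT 3, Slc2a5 was 180.3 CPM in WT 5, and Slc2a4 was 16.3 CPM in GCERAdT 3. GCERAdT 4 stood apart for Slc5a2 at 401 CPM and for Slc2a5 at 248 CPM, both above the rest of its group. Without GCERAdT 4, Slc5a2 was called lower in GCERAdT against GCERAd, at -0.53 on the log2 scale. 

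For 4 carriers the knockout contrast differed between the backgrounds with and without the transgene, by edgeR's test of the difference. The difference was 1.16 for Slc2a1, 0.95 for Slc5a12, -0.55 for Slc5a1 and -1.29 for Slc5a8 on the log2 scale. The sex-linked difference between WT and the other 3 groups enters each of these values, and the 2 cannot be told apart.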

How the results depend on the processing

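Counts of members called stayed within 1.5 times of the reported count under the settings not named here. In GCERAd against WT 0 were called among high-pseudogene libraries and 6 without GCERAd 1, 2 and 3. In GCERAdT against TRACK the count was 2 with the pseudogene class as covariate, 0 among high-pseudogene libraries, and 2 to 5 with 1 library left out. In GCERAdT against GCERAd it was 2 with DESeq2, 3 with the covariate, 3 in the fit of all 17 samples, 5 among low-pseudogene libraries, 4 without GCERAd 4 and 5, and 1 to 3 with 1 library left out. For the difference of the contrasts it was 2 among high-pseudogene libraries and 7 without GCERAd 1, 2 and 3. Among high-pseudogene libraries WT is 1 library, so those counts with WT say nothing on stability. The restrictions to a pseudogene class, the omissions of several GCERAd libraries and the summing of WT 1 with 2 and GCERAd 2 with 3, which changed no call, were chosen after seeing the data. With the replicate block, 6 members were called in GCERAdT against GCERAd and 2 in GCERAd against WT (Slc2a4 lost). The count was 5 in GCERAdT against TRACK, 5 in TRACK against WT (Slc2a4 lost) and 5 for the difference of contrasts. Whether libraries of the same number are paired is not established in any comparison. The difference of medians of the Slc5a12 over Slc5a8 ratio, TRACK against WT, was -2.43 with p = 0.107 (two-sided exact permutation test), where the difference of means had p = 0.0357.

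Directions reversed only for member differences that were not called as reported; the cause was not tested. In GCERAd against WT, Slc5a1 turned to 0.14 among high-pseudogene libraries and 0.042 without GCERAd 1, 2 and 3, and spanned -0.091 to 0.0346 over omissions of 1 library. Slc5a10 turned to -0.13 with the block, -0.33 with the covariate, -0.73 among low-pseudogene libraries and -0.73 without GCERAd 4 and 5, and spanned -0.24 to 0.22 over omissions of 1 library. Slc2a2 turned to -0.0745 among low-pseudogene libraries and -0.0329 without GCERAd 4 and 5. Slc2a5 turned to 0.24 among high-pseudogene libraries and 0.31 without GCERAd 1, 2 and 3, and spanned -0.18 to 0.0535 over omissions of 1 library. Slc2a9 turned to -0.0725 with the covariate, -0.25 among low-pseudogene libraries and -0.18 without GCERAd 4 and 5, and spanned -0.0552 to 0.15 over omissions of 1 library. In GCERAdT against TRACK, Slc5a2 turned to -0.00431 with DESeq2, -0.0043 with RLE scaling and -0.19 with the block, and spanned -0.21 to 0.16 over omissions of 1 library. In TRACK against WT, Slc2a2 spanned -0.0301 to 0.22 over omissions of 1 library. In GCERAdT against GCERAd, Slc2a5 turned to -0.0429 without GCERAd 1, 2 and 3. Slc2a9 turned to 0.0269 with the block, 0.12 among low-pseudogene libraries and 0.18 without GCERAd 4 and 5, and spanned -0.16 to 0.0499 over omissions of 1 library. For the difference of the knockout contrasts, Slc5a2 turned to 0.0782 with the covariate and 0.0744 among high-pseudogene libraries, and spanned -0.31 to 0.0642 over omissions of 1 library. Slc5a10 turned to 0.11 without GCERAd 4 and 5. Slc2a4 turned to -0.00125 with DESeq2, -0.00119 with RLE scaling, -0.17 with the covariate, -0.0415 among high-pseudogene libraries and -0.17 without GCERAd 4 and 5, and spanned -0.072 to 0.17 over omissions of 1 library. At 998 counts or more per member and library, counting error was small beside the spread between the 3 to 5 libraries per group.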

Other observations

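With each group's mean removed, the pattern of log2(CPM + 0.5) of each member over the 17 libraries was set beside that of 13274 genes with a mean of at least 1 CPM. These correlations are descriptions, and all points share their libraries, the pseudogene classes and the split within GCERAd. For Slc5a10 the nearest genes were Entpd5 (r = 0.98) and Cpt2 (r = 0.97), the latter a mitochondrial carnitine palmitoyltransferase of fatty acid oxidation. Slc2a9 lay nearest to Tsc22d1 (0.94) and Slc17a5 (0.93), Slc5a2 to Wdr18 (0.92) and Cyp4b1 (0.91), and Slc2a5 to Rest (0.91) and Slc37a4 (0.91), the glucose-6-phosphate carrier of the endoplasmic reticulum. Slc2a1 lay nearest to the platelet-type phosphofructokinase Pfkp (0.90) and to Ppp3cc (0.88), and Slc2a2 to the cystine carrier subunit Slc7a9 (0.88) and to Ren1 (0.88). Slc5a12 lay nearest to A930004J17Rik (0.93) and Gm12121 (0.93), Slc2a4 to Slc25a35 (0.92) and Mief2 (0.87), Slc5a8 to Dusp8 (0.87) and Hinfp (0.85), and Slc5a1 to the chaperone Pdia4 (0.85) and Rexo4 (0.82).

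Among the members themselves, the highest such correlation was between Slc5a10 and Slc2a9 (0.76) and the lowest between Slc5a12 and Slc2a5 (-0.69).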
